A study of Mus musculus with 6 samples.

Results

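Kinesins are motor proteins that use ATP to act on microtubules. The 34 kinesin genes described here were taken as a named family from the FPKM table of sorted GFP-positive cells. All 34 symbols were found, each on 1 locus of the 29606 in the table, and the ciliary motors of the kinesin-2 family other than Kif3c were left out by the choice of members. FPKM counts fragments per kilobase of exon, scaled to the size of the library, so genes of different length can be compared. Of the 34 genes, 30 had a mean of at least 1 FPKM over the 6 libraries and entered the comparison of genotypes with 13200 loci in all. The 4 below that level were Kif27, Kif6, Kif9 and Kif19a.

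The libraries were made from GFP-positive cells sorted out of the GEs of E13.5 mouse embryos, 3 for each genotype, and each held ribosome-depleted total RNA. The CCP1 cKO group carried CCP1 lox/lox with Dlx5,6 CRE GFP, and the WT group carried CCP1 Wt/Wt with the same Dlx5,6 CRE GFP transgene, so Cre and GFP were present in both. The Cre acts in cells of the Dlx5/6 lineage, which includes migrating cINs and their dividing progenitors, and it removes exons 20 and 21 of Agtpbp1, the gene of the deglutamylase CCP1. By the methods, the lox allele was made in 129S2/SvPas cells and embryos of both sexes were used, and the labels give the strain as MF1. The legends describe these values as from 3 embryos of different mothers per genotype. The limma p-values below set a difference between genotypes against the spread between these libraries, with a variance estimate that draws on all loci tested. Whether WT and CCP1 cKO embryos shared litters is not stated.

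A kinesin reads the microtubule it walks on, and the polyglutamate chains that CCP1 shortens are among the tubulin modifications known to affect motor binding. In neurons, kinesin-1 and kinesin-3 motors carry vesicles, mitochondria and other cargo from the cell body into processes, and a few family members shorten microtubules or stop their growth. In dividing cells another group builds the spindle, moves chromosomes and completes cytokinesis, and its genes are switched on in the late cell cycle. The 34 genes were therefore ordered by role, as 10 of cargo transport, 2 minus-end motors, 5 microtubule regulators, 6 cilium genes and 11 mitotic genes.

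The promoters of the mitotic kinesin genes shared a short sequence that most of the other kinesin promoters lacked, and they are shown for that reason. The letters TTTGAA are the core of the cell cycle genes homology region (CHR), which is bound by MuvB complexes and is known from genes expressed in the late cell cycle. The letters CCAAT are the box bound by NF-Y. Both were searched on both strands, where they read TTCAAA and ATTGG, in RefSeq windows from 250 bases before to 50 bases after an annotated start on GRCm38.p6 (mm10). The table matched 26 of the 34 genes, and Kif21b, Kif5b, Kif5a, Kif20a, Kif13b, Kifc3, Kifc2 and Kif19a had no entry. The windows of 5 mitotic genes follow, with that of Kif5c, the most abundant transport motor, as a contrast. They lie at chr19:37376132-37376431 on the plus strand for Kif11, chr9:122950831-122951130 on the plus strand for Kif15, chr11:102925075-102925374 on the minus strand for Kif18b, chr9:61946750-61947049 on the minus strand for Kif23, chrX:100625815-100626114 on the plus strand for Kif4 and chr2:49619036-49619335 on the plus strand for Kif5c. Each is written 5′ to 3′ on the strand of the gene, with matches to either motif in capitals.
Kif11: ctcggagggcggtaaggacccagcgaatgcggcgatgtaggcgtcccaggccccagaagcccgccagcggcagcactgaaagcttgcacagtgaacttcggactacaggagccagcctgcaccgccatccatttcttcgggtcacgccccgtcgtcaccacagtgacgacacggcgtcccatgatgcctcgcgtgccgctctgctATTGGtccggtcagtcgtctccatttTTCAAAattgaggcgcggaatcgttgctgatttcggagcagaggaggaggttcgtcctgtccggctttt
Kif15: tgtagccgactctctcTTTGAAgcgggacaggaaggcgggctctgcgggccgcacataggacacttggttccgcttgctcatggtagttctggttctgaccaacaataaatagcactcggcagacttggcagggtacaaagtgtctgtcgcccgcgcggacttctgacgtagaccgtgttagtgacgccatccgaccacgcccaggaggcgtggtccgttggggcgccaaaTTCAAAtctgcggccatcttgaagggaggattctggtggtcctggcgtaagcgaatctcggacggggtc
Kif18b: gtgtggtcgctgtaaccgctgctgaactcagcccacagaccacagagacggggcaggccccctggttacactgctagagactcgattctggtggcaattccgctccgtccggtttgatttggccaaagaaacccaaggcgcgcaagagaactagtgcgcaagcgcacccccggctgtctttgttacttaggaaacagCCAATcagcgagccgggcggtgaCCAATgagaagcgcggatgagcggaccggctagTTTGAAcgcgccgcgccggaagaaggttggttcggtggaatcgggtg
Kif23: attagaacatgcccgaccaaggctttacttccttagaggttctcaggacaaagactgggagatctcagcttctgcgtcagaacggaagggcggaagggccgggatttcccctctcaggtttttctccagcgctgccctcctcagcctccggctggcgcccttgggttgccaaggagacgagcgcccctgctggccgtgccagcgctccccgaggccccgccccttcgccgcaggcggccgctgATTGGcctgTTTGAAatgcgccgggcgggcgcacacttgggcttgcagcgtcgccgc
Kif4: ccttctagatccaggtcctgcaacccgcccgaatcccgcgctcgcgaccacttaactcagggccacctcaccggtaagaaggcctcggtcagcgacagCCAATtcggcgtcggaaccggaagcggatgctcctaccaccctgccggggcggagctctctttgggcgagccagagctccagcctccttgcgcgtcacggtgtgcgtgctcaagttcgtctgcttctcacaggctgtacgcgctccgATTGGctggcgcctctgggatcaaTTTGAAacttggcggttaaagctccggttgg
Kif5c: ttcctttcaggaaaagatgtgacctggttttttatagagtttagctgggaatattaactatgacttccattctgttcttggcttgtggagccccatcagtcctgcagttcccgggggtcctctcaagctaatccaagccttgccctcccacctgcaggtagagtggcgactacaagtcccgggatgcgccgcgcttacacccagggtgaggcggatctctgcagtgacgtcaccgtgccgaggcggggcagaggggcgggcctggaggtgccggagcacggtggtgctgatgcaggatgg

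TTTGAA occurred in 9 of the 10 mitotic promoters found, and Kif18a was the exception. It occurred in 3 of 20 promoters of the 16 other kinesin genes, those of Kif1a, Kif27 and Kif26b, and in 17.9% of all 32851 promoters of the table. Counting from 0 at the annotated start, the match lay from -19 to -14 in Kif11 and in Kif15, from -17 to -12 in Kif22, from 2 to 7 in Kif23, from 3 to 8 in Kif18b and from 19 to 24 in Kif4. Kif20b held 2 matches side by side, from 7 to 12 and from 13 to 18, and Kif15 and Kif22 each held a second one far upstream. In Kif11, the CCAAT box read on the opposite strand from -45 to -41, upstream of the TTTGAA match, and Kif18b held 2 such boxes upstream of its match. The windows of Kif14 and Kif2c belong to annotated starts inside the locus, and their matches lay from -228 to -223 and from -103 to -98. The same holds for the windows with a match in Kif1a and Kif27, and the window at the 5′ end of the Kif1a locus had no match. The Kif4 window, which begins at 100625815, also lies inside the annotated gene, which begins at 100625737. CCAAT occurred in 6 of the 10 mitotic promoters, in 6 of the 20 others and in 37.4% of all promoters. Both motifs stood together in 6 of 10 mitotic promoters, in 2 of the 20 others and in 6.95% of all promoters. No 2 matches of the different motifs overlapped. A match describes letters in a window and was not tested for binding.

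**Figure D1:**
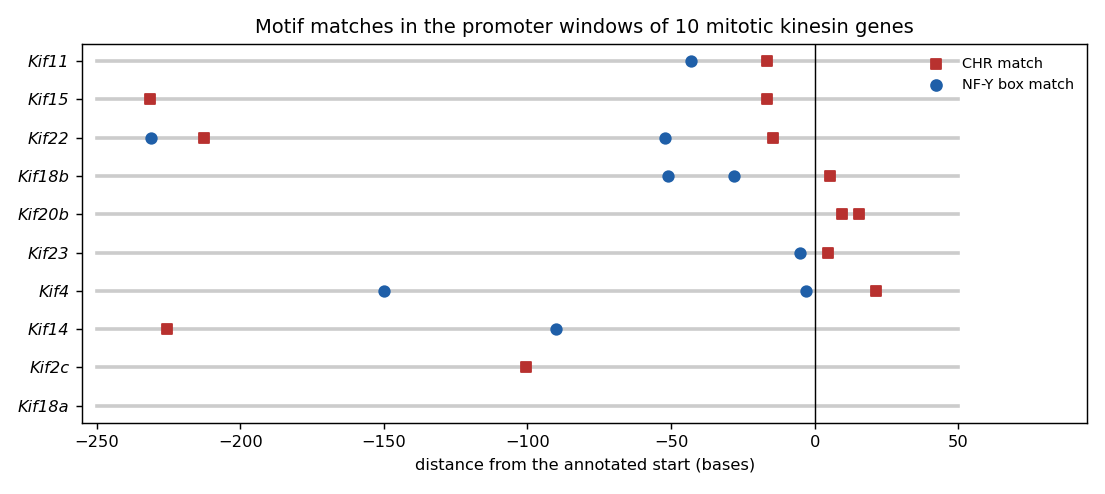
Each grey line is the window of 1 mitotic kinesin gene on an axis of bases from the annotated start, with red squares at the centre of TTTGAA matches (CHR) and blue circles at CCAAT matches (NF-Y box). In 7 of the 10 genes a TTTGAA match lies within 25 bases of the start, and Kif18a has no match.

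At the level of the whole series, Agtpbp1 had 20.01, 18.9 and 18.1 FPKM in WT against 9.68, 10.1 and 9.56 in CCP1 cKO, or 51.5% of the WT mean. Its locus also counts the exons that are not deleted. Of 8 GABAergic lineage markers, 7 reached a mean of 1 FPKM, as did 0 of 5 endothelial and 0 of 5 microglial markers. Among 7 radial glia markers, 6 reached it, and all 7 summed to 403 to 439 FPKM in WT and 396 to 459 in CCP1 cKO. Of 6 cortical excitatory markers, 5 reached it, and their sum was 8.86 to 36.6 FPKM in WT and 13.01 to 27.1 in CCP1 cKO. Of 5 red blood cell markers, 2 reached it, with Hbb-y the highest at a mean of 11.6 FPKM. The summed FPKM of a library ran from 447510 to 542953. The files give no depth, but the steps between low values gave rough estimates relative to CCP1 cKO replicate 1. They put WT replicate 1 at 0.724 of its depth, with 23.2% of 1019 low loci close to that ratio. WT replicate 2 came to 0.901, with 16.8% of 1006 low loci close to it. The share was at most 8.47% in the other libraries, which gave no clear ratio.

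Transport motors made up the largest share of the summed kinesin FPKM in every library. The 10 cargo transport genes held 49.4% to 52.9% of the summed FPKM of 33 kinesin genes, with Kif22 left out because its value is shared with Maz. The most abundant was Kif5c (chromosome 2, 49619263 to 49775511, plus strand on mm10), a heavy chain of kinesin-1 that is largely neuronal. Kif5c had 138.1, 118.2 and 117.1 FPKM in WT against 128.7, 119.8 and 134.9 in CCP1 cKO. The ubiquitous heavy chain Kif5b had 47.8, 47.4 and 48.7 FPKM in WT against 49.6, 45.6 and 42.4 in CCP1 cKO. Kif5a, the neuronal heavy chain that is mutated in a hereditary spastic paraplegia, had 37.9, 39.5 and 39.4 FPKM in WT against 36.4, 39.0 and 40.5 in CCP1 cKO. The order Kif5c, Kif5b, Kif5a held in all 6 libraries, and the genotypes overlapped in each of the 3 genes. Their sum was 204.4 to 223.8 FPKM per library, of which Kif5c made up 57.1% to 61.9%.

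Kinesin-3 motors came next. Kif1b, which carries mitochondria and synaptic vesicle precursors, had 64.3, 75.2 and 62.3 FPKM in WT against 61.4, 62.0 and 60.5 in CCP1 cKO. Kif1a, the main motor of synaptic vesicle precursors and dense core vesicles, had 49.9, 53.6 and 50.1 FPKM in WT against 46.4, 48.7 and 50.6 in CCP1 cKO. WT replicate 2 was the highest library for both. The other kinesin-3 genes of cargo transport lay far below them, with means over the 6 libraries of 7.19 FPKM for Kif13b, 5.73 FPKM for Kif13a, 3.42 FPKM for Kif1c and 1.70 FPKM for Kif16b, a motor of early endosomes. Kif3c, a kinesin-2 subunit found mostly in neurons, had 35.4, 36.3 and 36.5 FPKM in WT against 34.4, 34.02 and 34.04 in CCP1 cKO.

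Among the microtubule regulators, Kif21b and Kif21a, relatives that limit microtubule growth, were both well expressed. Kif21b had 66.8, 70.2 and 66.7 FPKM in WT against 62.2, 63.8 and 67.7 in CCP1 cKO. Kif26a, an atypical kinesin without ATPase activity, had 32.4, 27.0 and 29.9 FPKM in WT against 30.4, 30.02 and 35.8 in CCP1 cKO, and its relative Kif26b had a mean of 1.01 FPKM. Kif2a, a microtubule depolymerase that restrains the growth of axon branches, had 28.1, 30.6 and 23.3 FPKM in WT against 26.2, 27.0 and 22.5 in CCP1 cKO. The genotypes overlapped in Kif21b, Kif26a, Kif26b and Kif2a. Both minus-end motors were low. Kifc3, which works at cell junctions and the Golgi, had 4.91, 5.13 and 5.79 FPKM in WT against 5.48, 5.24 and 4.84 in CCP1 cKO. Kifc2, a motor of neuronal processes, had 4.39, 4.10 and 4.87 FPKM in WT against 4.34, 5.09 and 4.85 in CCP1 cKO.

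The 4 lowest genes of the family were all cilium kinesins, and the other 2 of that role were low as well. Kif7, which works at the tip of the primary cilium in Hedgehog signalling, had 4.47, 5.03 and 5.57 FPKM in WT against 4.26, 4.76 and 4.11 in CCP1 cKO. Kif24, which depolymerizes centriolar microtubules and holds back cilium formation, had 2.40, 4.42 and 3.09 FPKM in WT against 2.07, 2.54 and 2.19 in CCP1 cKO. The ranges of the genotypes overlapped in both genes. Kif27 reached a mean of 0.977 FPKM, and Kif6, Kif9 and Kif19a, which are known from motile cilia, had means of 0.511, 0.244 and 0.191 FPKM. Of 5 markers of multiciliated cells, 2 reached 1 FPKM, with Ccdc39 the highest at 2.32 FPKM.

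**Figure D2:**
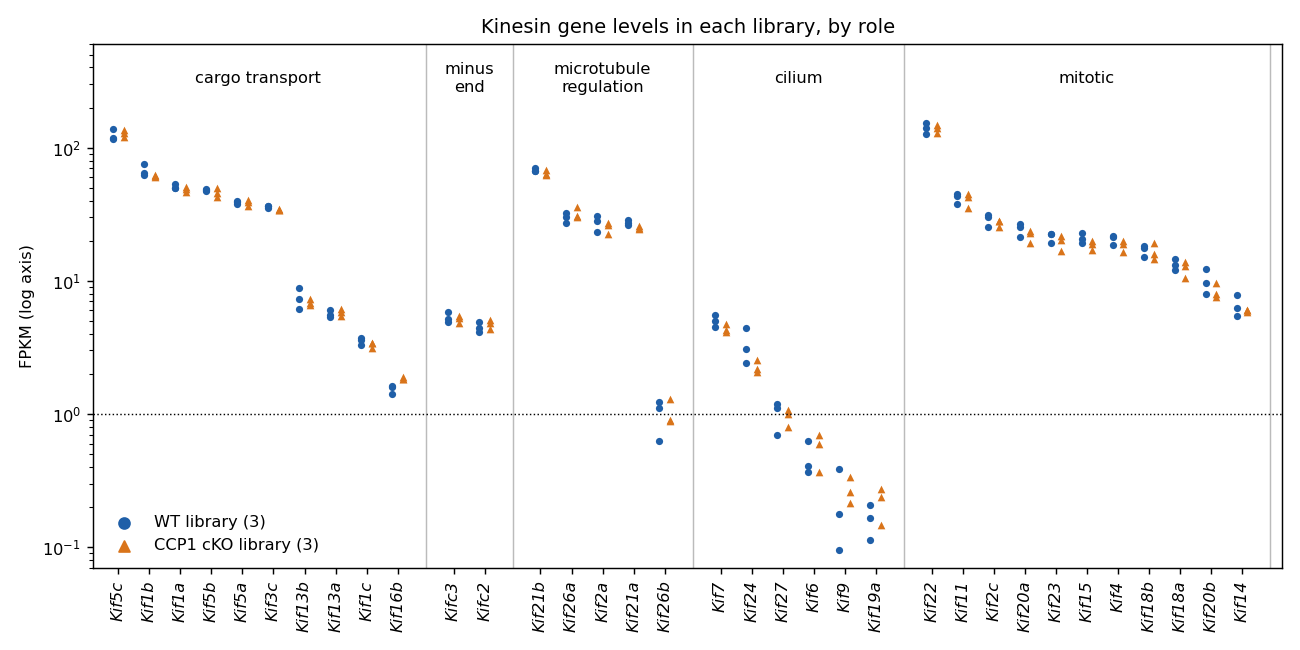
FPKM of the 34 kinesin genes on a log axis, 1 point per library, with WT as blue circles and CCP1 cKO as orange triangles, grouped by role. The dotted line marks 1 FPKM. All cargo transport, minus-end and mitotic genes have means above it, Kif22 with a value shared with Maz, while 4 of 6 cilium genes lie below.

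The loci of all 11 mitotic kinesins had means of 6.27 FPKM or more, the lowest being that of Kif14, which works with citron kinase in cytokinesis. The value at the Kif22 locus (chromosome 7, 127021390 to 127042445), 127.4, 139.5 and 152.8 FPKM in WT against 128.4, 141.2 and 147.3 in CCP1 cKO, cannot be assigned to this chromokinesin alone, because its row names Maz as well. Kif11, the motor that pushes spindle poles apart, had 37.5, 44.8 and 43.4 FPKM in WT against 42.7, 45.2 and 35.4 in CCP1 cKO (chromosome 19, 37376403 to 37421859, plus strand). Kif2c, a depolymerase that corrects attachments at centromeres, had 25.2, 29.98 and 31.0 FPKM in WT against 28.1, 28.3 and 25.4 in CCP1 cKO. Kif20a, which brings the chromosomal passenger complex to the spindle midzone, had 21.3, 25.4 and 26.5 FPKM in WT against 22.8, 23.8 and 19.2 in CCP1 cKO. In these 3 genes WT replicate 1 was the lowest WT library and replicate 3 the lowest CCP1 cKO library. The means of the others were 20.5 FPKM for Kif23, the motor of centralspindlin, 19.8 FPKM for Kif15, a second spindle-pole motor, 19.4 FPKM for the chromokinesin Kif4, 16.7 FPKM for Kif18b, 12.9 FPKM for Kif18a, which damps chromosome movements, and 9.16 FPKM for Kif20b, which acts in abscission.

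Close relatives were compared within libraries, since FPKM is set per length. Of 10 pairs from 1 subfamily with both genes at 1 FPKM or more, 9 had the same gene higher in 6 of 6 libraries (exact sign-flip test, two-sided, p = 0.03125, the smallest that 6 libraries allow, and 0.0347 after Benjamini-Hochberg adjustment over the 10 pairs). The test sets a difference only against the spread between libraries, so any pair of genes with steady, unlike levels reaches this p. The share of other gene pairs that do so was not counted, and errors in the level of a gene do not enter it. The mean ratio of the levels was 32.6 for Kif26a over Kif26b, 3.26 for Kif5c over Kif5a, 2.70 for Kif5c over Kif5b, 2.56 for Kif20a over Kif20b and 2.53 for Kif21b over Kif21a. It was smaller for Kif18b over Kif18a (1.31), Kif1b over Kif1a (1.29), Kif13b over Kif13a (1.26) and Kif5b over Kif5a (1.21). The ratio of Kif13b to Kif13a came down to 1.01 in 1 library, and that of Kif5b to Kif5a to 1.05. That of Kif26a to Kif26b ran from 23.5 to 47.9, with Kif26b close to the filter of 1 FPKM at a mean of 1.01 FPKM. The depolymerases Kif2c and Kif2a did not differ beyond their spread, with a mean ratio of 1.08 and Kif2c higher in 4 of 6 libraries (exact p = 0.3125). In the 3 WT libraries alone the same 9 pairs had 1 gene higher in 3 of 3, where the test allows no p below 0.25.

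No kinesin gene was detected as changed between CCP1 cKO and WT. At an adjusted p of 0.05 by limma, 0 of the 30 genes tested passed, where 12 of 13200 loci did so (0.0909%), and at an unadjusted p of 0.05, 0 of 30 did so against 4.62% of all loci. The log2 fold changes of FPKM + 1 ran from -0.37 for Kif24 to 0.16 for Kif16b, and the 95% intervals of all 30 genes lay between -0.80 and 0.48. The smallest unadjusted p was 0.0765 for Kif24 (95% interval of its log2 fold change -0.80 to 0.05, adjusted p = 0.976 by limma), and without WT replicate 2 its log2 fold change was -0.19. The log2 difference between the genotypes was smaller than the pooled SD of the libraries within a genotype in 19 of the 30 genes. The intervals of the most abundant transport motors were as follows. That of Kif5c was -0.17 to 0.26 around a log2 fold change of 0.04, and that of Kif1b -0.32 to 0.07 around -0.13. That of Kif1a was -0.22 to 0.08 around -0.07, that of Kif5b -0.23 to 0.10 around -0.07 and that of Kif5a -0.16 to 0.14 around -0.01.

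**Figure D3:**
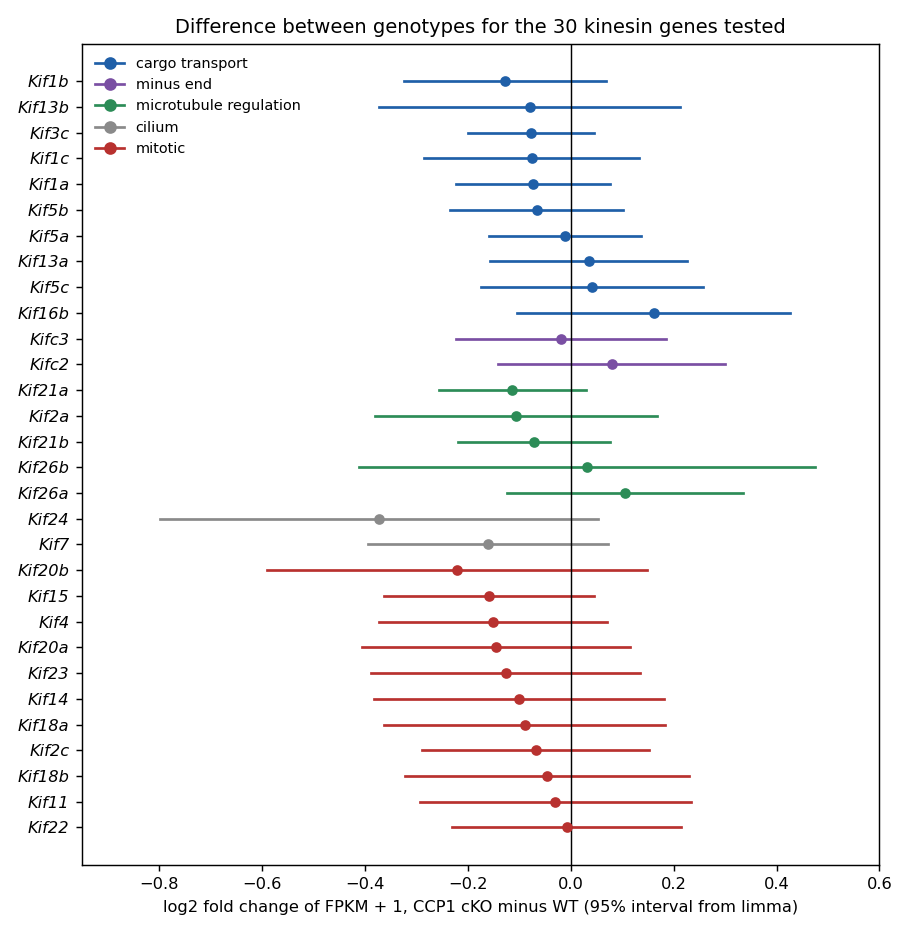
The log2 fold change of FPKM + 1 (CCP1 cKO minus WT) of the 30 kinesin genes tested, with bars for the 95% interval from limma and colours for the role. Every interval crosses 0, and 24 of the 30 points lie below it.

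In 4 of the 30 genes (13.3%) the libraries of the genotypes did not overlap, where 9.8% of all loci did not. Kif1b, Kif3c and Kif21a had every CCP1 cKO library below every WT library (5.81% of all loci), and Kif16b every CCP1 cKO library above (3.98% of all loci). With 3 libraries against 3, a two-sided exact permutation test allows no p below 0.1, which is the value each of these 4 genes had, and their adjusted p by limma was 0.976. Kif1b (chromosome 4, 149176233 to 149308025, minus strand) was 67.3 ± 6.98 FPKM in WT against 61.3 ± 0.741 in CCP1 cKO (SD, n = 3 each), a log2 fold change of -0.13 that came to -0.05 without WT replicate 2. Kif3c was 36.1 ± 0.594 FPKM in WT against 34.1 ± 0.196 in CCP1 cKO (log2 fold change -0.08). Its span in the file, chromosome 12 from 3365132 to 3521318, is 3.78 times as long as the annotated gene and is also given to Asxl2 and 1110002L01Rik, which have values of their own, and exons of 1110002L01Rik overlap those of Kif3c on the opposite strand. Kif21a (chromosome 15, 90933276 to 91049948, minus strand) had 27.3, 28.6 and 26.1 FPKM in WT against 25.1, 25.9 and 24.5 in CCP1 cKO (log2 fold change -0.11). The lowest WT library was thus barely above the highest CCP1 cKO library. Kif16b (chromosome 2, 142618345 to 142901524, minus strand) had 1.42, 1.603 and 1.617 FPKM in WT against 1.82, 1.82 and 1.89 in CCP1 cKO, a log2 fold change of 0.16 on the FPKM + 1 scale, which understates the change of so low a gene.

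**Figure D4:**
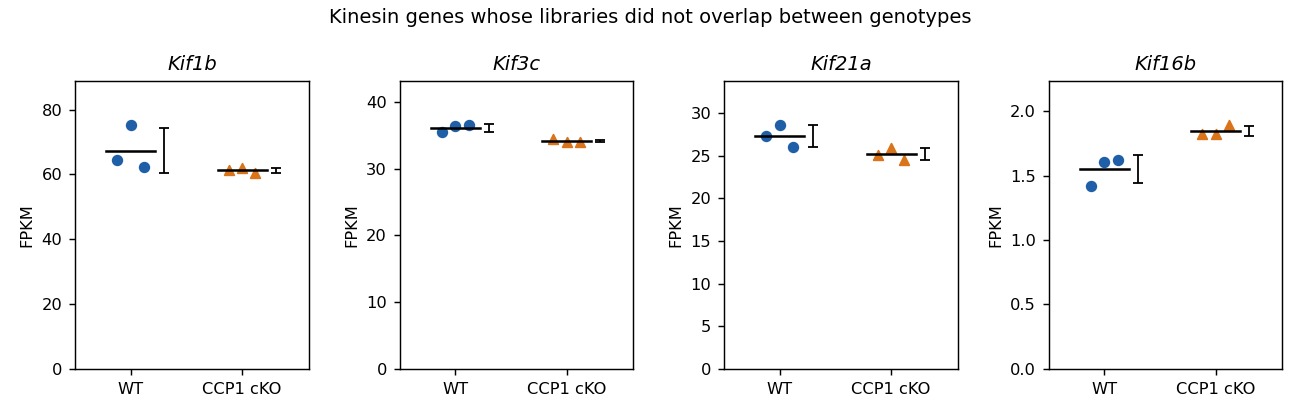
FPKM of Kif1b, Kif3c, Kif21a and Kif16b in each library, on axes that start at 0, with the mean as a line and the SD (n = 3) as a bar beside the points. The CCP1 cKO libraries sit below the WT libraries in the first 3 genes and above them in Kif16b, by 0.299 FPKM between the means.

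The fold changes of the kinesin genes were mostly slightly negative. Of 30, 24 were below 0 and 6 above, with a median log2 fold change of -0.08, and 56.6% of all loci were below 0 with a median of -0.02. The median of the 30 was -0.05 with library weights or without CCP1 cKO replicate 3, and -0.04, over 29 genes, without WT replicate 2. The median was -0.07 for the 10 transport genes, of which 7 were below 0, and it was -0.02 with 6 below 0 without WT replicate 2. Kif22 aside, all 10 mitotic genes were below 0, with a median of -0.11 and a range from -0.22 for Kif20b to -0.03 for Kif11, and 0 of the 10 had genotypes that did not overlap. Examples are Kif15 at -0.16 (95% interval -0.36 to 0.05), Kif4 at -0.15 (-0.37 to 0.07) and Kif20a at -0.15 (-0.41 to 0.11). In 8 of these 10 genes the difference was smaller than the pooled SD within a genotype. The count depended on single libraries. It fell to 8 of 10 below 0 without WT replicate 2, with a median of -0.05, and to 8 of 10 without CCP1 cKO replicate 3, with a median of -0.04. Without WT replicate 1 the 10 were below 0 with a median of -0.20, and without CCP1 cKO replicate 2 with -0.18.

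The libraries of 1 genotype stood apart in the mitotic genes, and they did so in most of these genes together. WT replicate 1 was the lowest WT library in 10 of 10 mitotic genes, with a median deviation of -0.16 in log2 FPKM from the WT mean, and CCP1 cKO replicate 3 was the lowest of its genotype in 9 of 10, with a median of -0.15. CCP1 cKO replicate 2 was the highest in 9 of 10, with a median of 0.13. The transport genes lacked this order, with medians of -0.03 in WT replicate 1 and 0.04 in CCP1 cKO replicate 3. The medians of all loci in these libraries were 0.00 and -0.03. Among 13051 loci tested and above 0 in every library, WT replicate 1 was the lowest WT library in 4043. CCP1 cKO replicate 3 was the lowest of its genotype in 5780 of them, and CCP1 cKO replicate 2 the highest in 3986. Mitotic kinesins, without Kif22, made up 24.4%, 27.9% and 28.3% of the summed kinesin FPKM in WT and 26.4%, 27.97% and 23.6% in CCP1 cKO. The means were 26.8% ± 2.16 and 26.0% ± 2.23 (SD, n = 3), so the range within each genotype exceeded the difference between them. With both of the low libraries left out, a choice made after seeing the values, 0 of 29 kinesins passed, and the 10 mitotic genes were below 0 with a median of -0.12.

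Other genes of dividing cells had the same 2 low libraries. Of the 12 mitotic partners, the kinases, scaffolds and midzone proteins that work with these motors, WT replicate 1 was the lowest WT library in 12 of 12 (median -0.14) and CCP1 cKO replicate 3 the lowest of its genotype in 8 of 12 (-0.13). Of 10 cell cycle markers, among them Mki67 and Top2a, these libraries were the lowest in 8 of 10 (-0.11) and 10 of 10 (-0.16). Over the 13051 loci above 0 in every library, they were the lowest of their genotype in 4043 and 5780. The medians of 8 neuron markers in them were 0.06 and -0.03, and those of 5 cortical excitatory markers were 0.53 and -0.44. Those of 7 GABAergic lineage markers were -0.07 and 0.10, and those of 6 radial glia markers were 0.07 and -0.09. The estimated depth of WT replicate 1 was also low, at 0.724 of that of CCP1 cKO replicate 1, against 0.901 for WT replicate 2. CCP1 cKO replicate 3 had no clear estimate. The part of depth or of cell makeup in the low mitotic values was not tested, and in sorted bulk RNA fewer dividing cells and less mitotic RNA per dividing cell cannot be told apart.

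**Figure D5:**
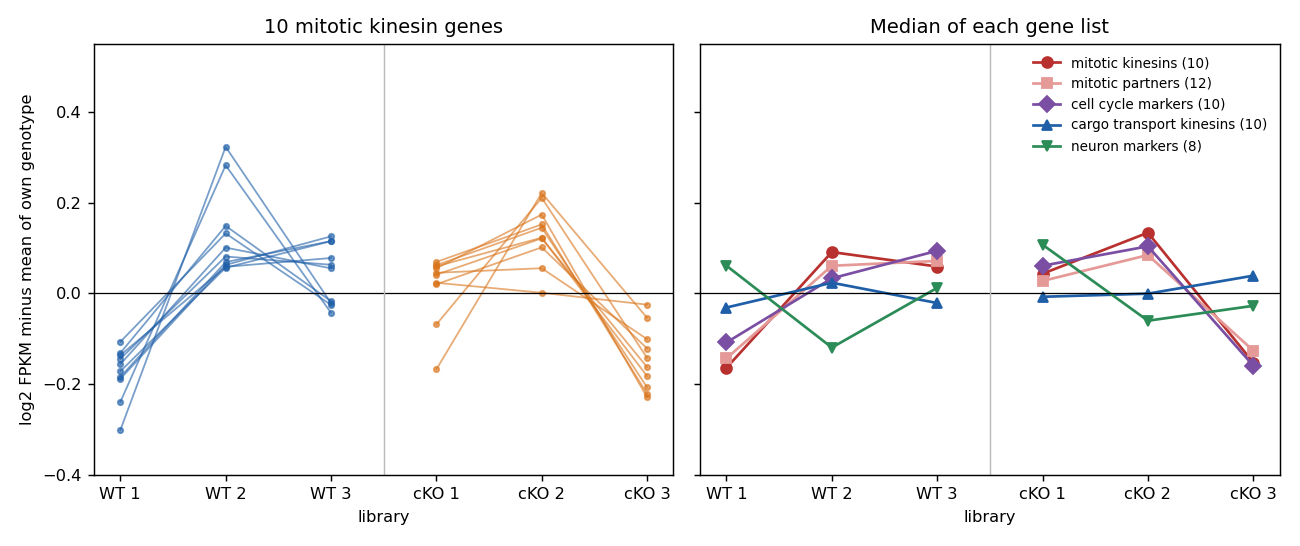
On the left, the log2 FPKM of each of the 10 mitotic kinesin genes (Kif22 left out) in each library, minus the mean of its own genotype. On the right, the median of the same deviation for 5 gene lists. Mitotic kinesins, mitotic partners and cell cycle markers are low in WT 1 and cKO 3, and cargo transport kinesins stay between -0.03 and 0.04.

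The genes that work with kinesins gave no call. Of 16 light chain and cargo adaptor genes, 0 passed an adjusted p of 0.05 and 0 had an unadjusted p under 0.05 by limma, with a median log2 fold change of 0.02. The most abundant were Fez1, an adaptor of kinesin-1, at a mean of 125.9 FPKM and the kinesin light chain Klc1 at 121.6 FPKM, a level near that of Kif5c. In 2 of the 16 (12.5%, against 9.8% of all loci) the genotypes did not overlap. They were Madd, a Rab3 exchange factor that links Kif1a and Kif1b to vesicles, with a log2 fold change of -0.15, and Trak1, which couples kinesin-1 to mitochondria, with -0.12. Madd had 18.8, 20.4 and 18.9 FPKM in WT against 16.8, 17.1 and 18.3 in CCP1 cKO. Trak1 had 17.5, 18.5 and 17.9 FPKM in WT against 16.3, 16.2 and 16.8 in CCP1 cKO. Klc3 and Trak2 were next by p, with log2 fold changes of 0.16 and -0.06. Of the 12 mitotic partners, 0 passed, 0 had an unadjusted p under 0.05 and 0 had genotypes that did not overlap, with a median of -0.10. The most abundant were Racgap1, the partner of Kif23 in centralspindlin, at 54.7 FPKM and the midzone protein Prc1 at 47.9 FPKM. The 4 smallest p-values belonged to citron kinase Cit (log2 fold change -0.24), Incenp (-0.12), Ect2 (-0.14) and the centromere kinesin Cenpe (-0.14).

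The file gives the span of 11 of the 34 kinesins also to rows of other genes, so a span can be longer than the gene, 8.30 times for Kif20a, 3.15 times for Kif7 and 2.94 times for Kifc2. These neighbours have values of their own, and only the row of Kif22 names another gene as well. Exons on the opposite strand overlapped those of Kif2a (Dimt1), Kif20a (Cdc23) and Kif4 (Pdzd11), among others, and the sources used here do not say whether fragments were counted by strand. The part of these neighbours in the kinesin levels was not tested.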

How the data were processed

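RNA of FACS-sorted GFP-positive cells was extracted from 3 WT and 3 CCP1 cKO samples and sequenced as stranded, ribosome-depleted, paired-end libraries. The instrument is a HiSeq2000 in the labels and a NextSeq in the methods. The authors aligned reads with Bowtie2 in the Tuxedo workflow on mm10, and Cuffdiff gave the deposited FPKM values per library. The annotation and the versions of these programs were not given in the sources used here. Columns of genotype means, fold changes, p-values and q-values hold the authors' own comparison and were not used, nor was the isoform table, where decimal points are lost.

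Columns were joined to samples by name. Every locus averaging 1 FPKM or more was fitted with limma 3.58.1 in R 4.3.3 (lmFit, eBayes with a trend) on log2(FPKM + 1), with Benjamini-Hochberg adjustment over 13200 loci. The procedure was also run on simulated data with independent noise at each locus and larger changes than any kinesin had. That run does not bear on differences as small as those of the kinesins. Relatives were compared with exact sign-flip tests and single genes with exact permutation tests, in Python 3.11.15 with NumPy 2.4.6, pandas 2.3.3 and SciPy 1.17.1, and Matplotlib 3.10.9 drew the plots. Gene spans came from GENCODE and promoters from RefSeq (GRCm38.p6). Loci on overlapping or similar sequence can share fragments, which FPKM do not show.

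The members, roles and lists were chosen with earlier results of these data known. Values in every library were given for the 12 members with the highest mean, for members with an unadjusted p under 0.05 or without overlap, and for the 2 most abundant members of each role. Of the partner lists, the 4 genes with the smallest p and the 2 most abundant were named. Kif20a, members cited as examples of a range, and motif-bearing genes were named outside this rule, after their values were seen. The alternatives were smaller pseudocounts (0.5 and 0.1), a filter at 5 FPKM or none, equal medians, quantile normalization, TPM, library weights, a fit without the trend, a replicate block, leaving out single libraries, Kif2a counted as mitotic, and, added after seeing the data, WT replicate 1 and CCP1 cKO replicate 3 left out together.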

Additional observations from a re-analysis of the deposited data

How the results depend on the processing

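No kinesin, light chain, adaptor or mitotic partner gene passed an adjusted p of 0.05 by limma under any alternative, and the smallest adjusted p of a kinesin was 0.593, for Kif24 without WT replicate 1. At an unadjusted p of 0.05 there was 1 kinesin of 30 with the replicate block (6.78% of all loci), 1 of 30 with no trend (5.01%), 2 of 29 without WT replicate 1 (6.79%), 1 of 29 with WT replicate 1 and CCP1 cKO replicate 3 left out (4.44%) and 0 otherwise. Over all loci, 12 passed, against 28 on the TPM scale, 24 with library weights, 5 with WT replicate 1 and CCP1 cKO replicate 3 left out and 5 to 16 with 1 library left out. The replicate block gave 16 loci and changed no call on a kinesin. Deviations of same-numbered samples correlated at 0.32, 0.11 and 0.04 over loci. WT replicate 2 correlated no better with CCP1 cKO replicate 2 than with replicate 3 (0.12). WT replicate 3 correlated best with CCP1 cKO replicate 2 (0.17). Only WT replicate 1 had its best match clearly in the same number, so whether the numbers pair the samples cannot be told from these values.

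Of the 30 kinesins tested, 22 were followed 1 by 1, and Kif23, Kif18a, Kif18b, Kif14, Kif13a, Kif13b, Kif1c and Kif26b were not. Among the 22, 17 kept the sign of their fold change under every alternative run for them (16 for the 4 genes that a filter at 5 FPKM removes, 17 for the others). Of the 370 values of these 22 genes, 15 changed sign, none above 0.0711 in size. With equal medians the log2 fold change was 0.0128 for Kif22, 0.0104 for Kif5a and 0.00223 for Kifc3, with quantile normalization 0.0126 for Kifc3, and with library weights -0.000857 for Kif5c, 0.0349 for Kif11 and 0.00477 for Kif5a. With 1 library, or both libraries named above, left out it ran from -0.116 to 0.0566 for Kif22, -0.000779 to 0.117 for Kif5c, -0.106 to 0.0711 for Kif11, -0.0633 to 0.0305 for Kif5a and -0.0612 to 0.0387 for Kifc3. With library weights 7 of the 10 mitotic genes were below 0 and 3 above, and of these 3 only Kif11 was among the genes followed. The cause of these shifts was not tested. Counting Kif2a as mitotic raised the mitotic share to 30.4% in WT and 29.4% in CCP1 cKO. With 3 libraries against 3, an exact permutation test of 1 gene cannot reach 0.05, and the intervals of the kinesins allow differences up to the bounds given above.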
